A study of Rattus norvegicus with 38 samples.

Results

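Myh6 (ENSRNOG00000025757) and Myh7 (ENSRNOG00000016983), the genes of the alpha and beta heavy chains of cardiac myosin, were followed across 5 regions of failing and healthy rat hearts. Both genes were picked out by their rat Ensembl IDs, with earlier results of these data known, and they are 2 of the 24057 genes in the deposited table. The symbols come from that choice, since the files give IDs only. The hearts came from male Sprague-Dawley rats aged 10 weeks. Per the labels' protocols, pups had the ascending aorta constricted at 1 week of age and later showed left ventricular hypertrophy. That text stands on failing and healthy libraries alike, and the labels do not say whether the healthy rats had surgery. RNA sequencing covered the inferior and the superior sinoatrial node (iSAN and sSAN, the tissue in which the heartbeat starts), both atria (right, RA, and left, LA) and the left ventricle (LV). There were 4 libraries for each state of a region, but only 2 for the healthy left ventricle, 38 in all.

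Libraries are named as in their titles, by region and a 4-digit code (RA_0409), where healthy inferior nodes begin with SB and healthy superior nodes with ST. The failing codes are code-0409, code-0506, code-0507 and code-0508, the healthy codes are code-0920, code-0921, code-1001 and code-1002, and 0 codes occur in both states. A difference between sets of codes therefore cannot be told apart from the difference in health state. The values of a group are given in this order of codes. Whether a code stands for an animal is not said in the labels, and where it does not, the spread behind each p-value may be technical. Totals per library ran from 17406473 to 27355777 estimated counts. Myh7 had at least 1509 and Myh6 at least 21063 estimated counts in every library, so that counting error alone was at most 2.57% of a Myh7 value. The samples are pieces of tissue, in which fewer cells of a type and less RNA per cell cannot be told apart. Markers of other cell types could not be looked up, because 0 of the 24057 IDs matched the reference table, and the region labels were not checked against marker genes for the same reason.

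Myosin heavy chains are the motor proteins of the thick filament, and pairs of them pull on actin to shorten the muscle. The alpha chain hydrolyses ATP faster and gives faster contraction, while the beta chain is slower and spends less energy for the same tension. In rats and mice the beta chain dominates the ventricle before birth, the alpha chain takes over after birth under thyroid hormone, and a return towards the beta chain is a textbook sign of pressure overload. The atria make mainly the alpha chain throughout life.

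The 2 genes are direct neighbours on chromosome 15 and on the same strand in RefSeq's annotation of the assembly GRCr8, with 0 annotated genes between them. Each holds a microRNA gene on its own strand, Mir208a in Myh6 and Mir208b in Myh7. MicroRNAs are short RNAs that pair with messenger RNAs through their seed, bases 2 to 8. The mature 3′ arms are shown because each is encoded inside a gene measured here. The microRNAs themselves were not measured. In the 2 sequences, credited to RefSeq (GRCr8, minus strand, chr15:32395568-32395585 and chr15:32421648-32421665), the capitals mark the seed.
rno-miR-208a-3p: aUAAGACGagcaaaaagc
rno-miR-208b-3p: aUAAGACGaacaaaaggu
The seed is the same in both. Of 18 bases 15 are the same, and the differences, counted from 1 at the 5′ end with the base of miR-208a-3p first, are G10A, A16G and C18U. RefSeq also places other genes on the opposite strand over parts of both host genes, a long noncoding RNA and the microRNA gene Mir3546 over Myh6 and a long noncoding RNA and a protein-coding gene over Myh7. Whether the libraries keep the strand is not stated in the labels. Reads that match both myosin genes, whose sequences are closely related, could have been divided between them by the authors' quantification, so a low level of either gene beside a high level of the other is less certain than a high level.

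In healthy hearts Myh6 was among the most abundant transcripts of every region, and Myh7 was a small fraction of it. Levels are given as TPM, a unit that the authors scaled for transcript length and library size, so that the 2 genes can be compared. In the healthy right atrium Myh6 stood at 6005, 6388, 6081 and 6754 TPM and Myh7 at 30.2, 32.0, 35.8 and 19.2 TPM. In the healthy left atrium Myh6 stood at 5473, 6165, 5441 and 6407 TPM and Myh7 at 44.9, 47.2, 44.5 and 35.2 TPM. Every healthy atrial library thus had at least 5441 TPM of Myh6 and at most 47.2 TPM of Myh7.

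The node parts had the same order of the 2 genes. Mean Myh6 was lower and its values more variable in both node parts than in either atrium. Mean Myh7 was below both atria in the superior node only, and in the inferior node it lay between the right and the left atrium. In the healthy inferior node Myh6 stood at 4692, 2742, 3768 and 4911 TPM and Myh7 at 33.5, 23.5, 40.2 and 35.1 TPM. In the healthy superior node Myh6 stood at 2610, 1219, 2723 and 3484 TPM and Myh7 at 15.7, 10.9, 28.0 and 19.99 TPM. The code-0921 library was the lowest for both genes in both node parts. The 2 healthy left ventricle libraries, LV_1001 and LV_1002, had 3883 and 4409 TPM of Myh6 and 333 and 316 TPM of Myh7, so that Myh7 was higher there than in any healthy library of the other 4 regions.

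In failing hearts Myh6 stood lower and Myh7 higher. In the failing right atrium Myh6 stood at 2421, 3230, 2097 and 1034 TPM and Myh7 at 118, 65.6, 81.2 and 143 TPM. In the failing left atrium Myh6 stood at 2316, 2132, 1063 and 2093 TPM and Myh7 at 177, 202, 99.1 and 217 TPM. In both atria every failing library lay below every healthy one for Myh6 and above every healthy one for Myh7. How many of all genes separate the states in this way was not counted, here or in the regions below.

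In the failing inferior node Myh6 stood at 1927, 1482, 1234 and 736 TPM and Myh7 at 178, 68.5, 109 and 204 TPM, again with no overlap with healthy libraries for either gene. In the failing superior node Myh6 stood at 2566, 1276, 1544 and 681 TPM, which overlaps the healthy range. Myh7 stood at 202, 40.0, 82.8 and 145 TPM in the failing superior node, above every healthy library. The order of the genes was reversed in the failing left ventricle, where Myh6 stood at 1157, 888, 422 and 194 TPM and Myh7 at 1897, 1007, 1145 and 1939 TPM.

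**Figure D1:**
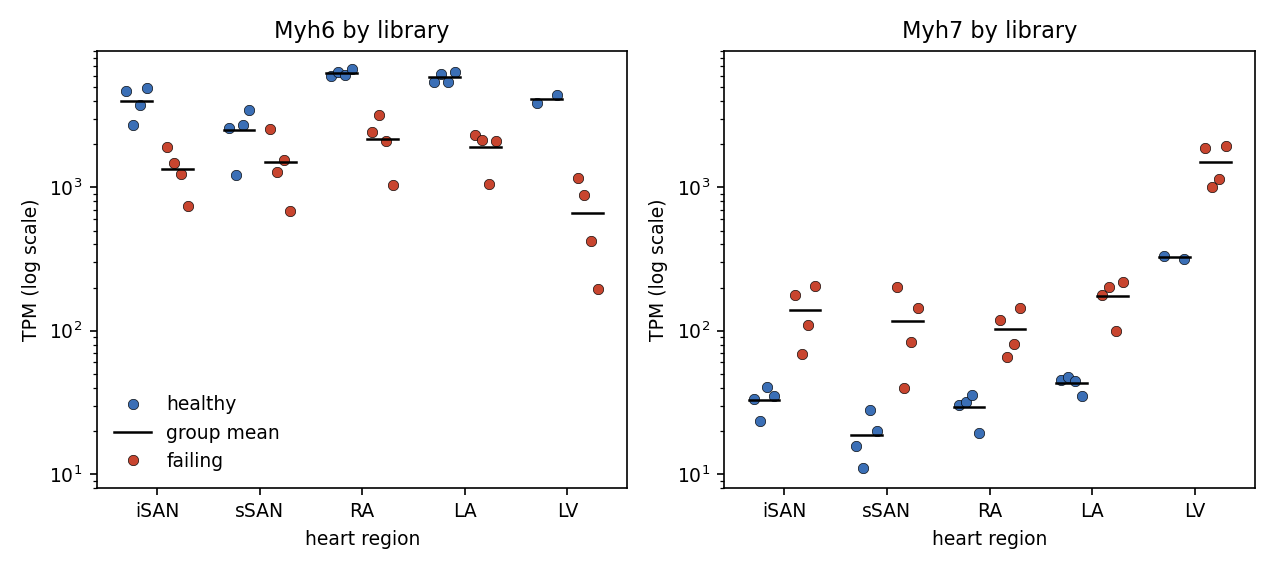
Level of Myh6 (left) and Myh7 (right) in TPM, on a log axis, for every library in 5 heart regions, with healthy libraries in blue, failing ones in red and the group mean as a line. Myh6 was lower and Myh7 higher in failing libraries, with overlap only for Myh6 in the superior node, and Myh7 in the left ventricle lay above all other regions of the same state.

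The first question was how each gene differed between failing and healthy hearts within a region. Counts were compared with edgeR's quasi-likelihood test, with Benjamini-Hochberg adjustment over all genes tested and a call made below 0.05. A fold change is a log2 difference of scaled counts, failing minus healthy. Myh7 was fitted higher and Myh6 lower in all 5 regions. Myh7 was called in 4 of 5 and Myh6 in 3 of 5. Of all genes tested 38.5, 13.5, 47.5, 48.2 and 0% were called in iSAN, sSAN, RA, LA and LV. Neither member passed the test in the left ventricle, the region with the largest fitted fold changes of both genes.

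In the inferior node Myh7 averaged 140 ± 62.2 TPM in failing against 33.1 ± 6.98 TPM in healthy hearts (SD, n = 4 each). This is a rise of 2.05 on the log2 scale (SE 0.38, edgeR adjusted p = 0.0042). Myh6 averaged 1345 ± 497 TPM in failing and 4028 ± 990 TPM in healthy inferior nodes (SD, n = 4 each), and fell by 1.61 (SE 0.37, edgeR adjusted p = 0.0093). Of all genes tested there, 38.5% passed the same threshold, so that passing it was common. By size, 2.10% of the genes tested had a larger absolute fold change than Myh7 and 4.95% a larger one than Myh6.

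In the superior node Myh7 averaged 117 ± 70.7 TPM in failing against 18.7 ± 7.26 TPM in healthy hearts (SD, n = 4 each), a rise of 2.44 (SE 0.44, edgeR adjusted p = 0.0156). Of the genes tested in this region 13.5% passed, and 0.711% had a larger absolute fold change than Myh7. Myh6 averaged 1517 ± 787 TPM in failing and 2509 ± 944 TPM in healthy superior nodes (SD, n = 4 each). Its log2 difference of -0.87 (SE 0.38) did not pass (edgeR adjusted p = 0.146), while DESeq2 gave -0.89 with an adjusted p of 0.0439. Without the healthy library ST_0920 the Myh7 difference was 2.31 with an edgeR adjusted p of 0.0516, just above the threshold.

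In the right atrium Myh7 averaged 102 ± 35.1 TPM in failing against 29.3 ± 7.11 TPM in healthy hearts (SD, n = 4 each), a rise of 2.10 (SE 0.30, edgeR adjusted p = 0.00070). Myh6 averaged 2196 ± 909 against 6307 ± 341 TPM (SD, n = 4 each) and fell by 1.29 (SE 0.25, edgeR adjusted p = 0.0029). Left atrial Myh7 averaged 174 ± 52.5 against 43.0 ± 5.28 TPM (SD, n = 4 each) and rose by 2.22 (SE 0.22, edgeR adjusted p = 0.00016). Myh6 in the left atrium averaged 1901 ± 567 against 5872 ± 489 TPM (SD, n = 4 each) and fell by 1.42 (SE 0.25, edgeR adjusted p = 0.0018). Passing was common in the atria, with 47.5% of genes tested in the right and 48.2% in the left. Genes with a larger absolute fold change made up 1.81% for Myh7 and 7.59% for Myh6 in right atria, and 2.76% and 8.61% in left atria.

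In the left ventricle Myh7 averaged 1497 ± 490 TPM in 4 failing libraries against 324 ± 12.2 TPM in 2 healthy ones (SD), a log2 difference of 2.64 (SE 0.52). Myh6 averaged 665 ± 437 TPM in failing against 4146 ± 372 TPM in healthy ventricles (SD), a log2 difference of -2.13 (SE 0.75). The groups did not overlap for either gene, but how many of all genes separate 4 from 2 libraries in this way was not counted. The edgeR adjusted p was 0.286 for Myh7 and 0.424 for Myh6, beside 0 of 13670 genes called (0%), 1510 genes at an unadjusted p under 0.05 and 356 genes called by DESeq2. DESeq2 gave Myh7 2.64 with an adjusted p of 2.5e-08 and Myh6 -2.13 with an adjusted p of 0.0869. In 1 fit of all 38 libraries the ventricle borrows the spread of the other regions. There edgeR called both genes, Myh7 at 2.65 (adjusted p = 0.0014) and Myh6 at -2.11 (adjusted p = 0.0043). That fit took libraries that share a code as independent. Its SE was 0.49 for Myh6, below that of the ventricle alone, and 0.52 for Myh7.

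**Figure D2:**
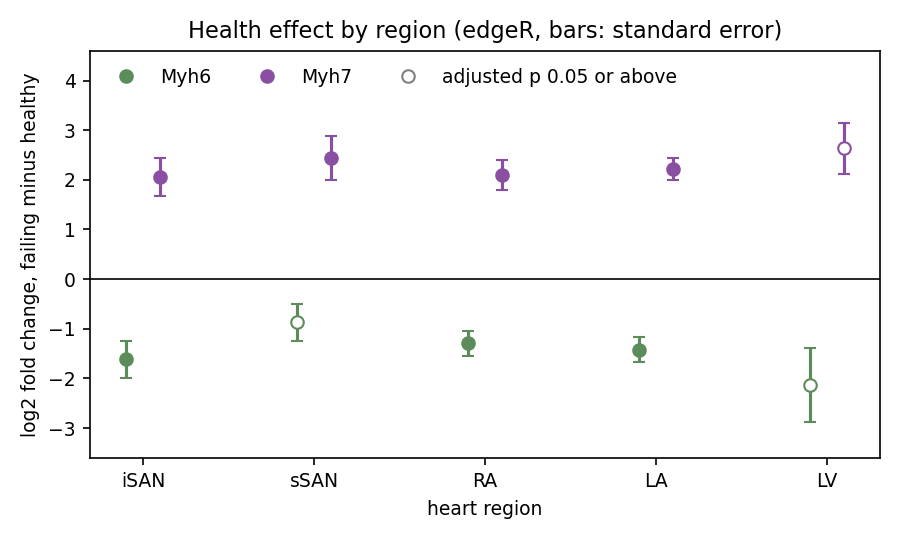
Log2 fold change of scaled counts, failing minus healthy, by region from edgeR, with bars for the standard error, Myh6 in green, Myh7 in purple and open symbols for an adjusted p of 0.05 or above. All 5 Myh7 values lie above 0, from 2.05 to 2.64, and all 5 Myh6 values below 0, from -2.13 to -0.87.

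The next question was how much of the myosin heavy chain RNA was Myh7. Its share of the summed TPM of the 2 genes was 0.467 ± 0.129% in the healthy right atrium, 0.733 ± 0.126% in the healthy left atrium, 0.831 ± 0.163% in the inferior and 0.769 ± 0.220% in the superior node (SD, n = 4 each). In the 2 healthy ventricles it was 7.90% and 6.69%. In failing hearts the share was 4.65, 1.99, 3.73 and 12.2% in right atria and 7.11, 8.65, 8.52 and 9.41% in left atria. It was 8.47, 4.42, 8.12 and 21.7% in the failing inferior node and 7.28, 3.04, 5.09 and 17.5% in the failing superior node. In the failing ventricle Myh7 made up 62.1, 53.1, 73.1 and 90.9% of the sum, over 50% in each of the 4 libraries. Failing and healthy libraries did not overlap in any of the 5 regions, and how often other pairs of genes separate the states was not counted.

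**Figure D3:**
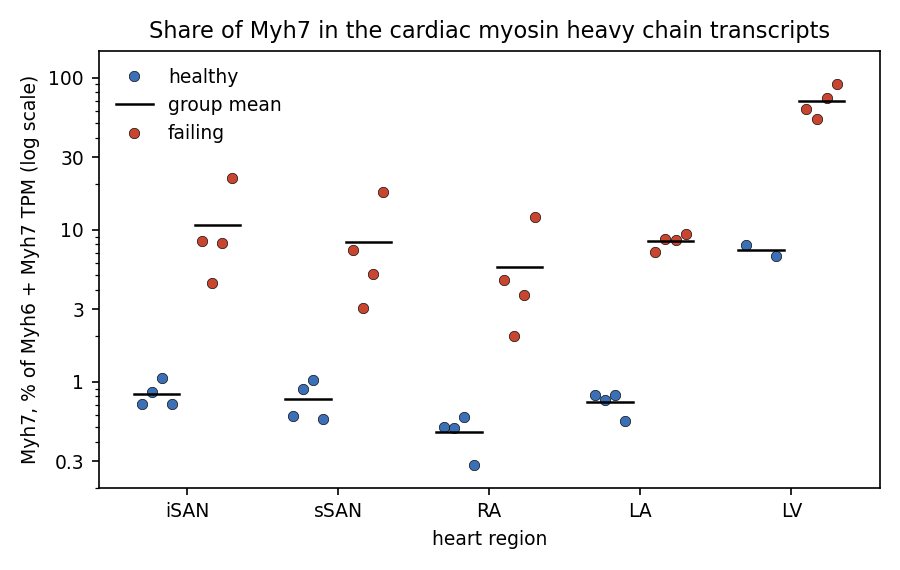
Myh7 as a percentage of the summed TPM of Myh6 and Myh7, on a log axis, for every library, with healthy libraries in blue, failing ones in red and the group mean as a line. Healthy atria and nodes lie between 0.284% and 1.05%, failing atria and nodes between 1.99% and 21.7%, healthy left ventricles at 6.69% and 7.90%, and failing left ventricles between 53.1% and 90.9%.

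The ratio of Myh7 to Myh6 TPM does not depend on how a library is scaled. It was compared as a log2 value with exact two-sided permutation tests, adjusted over the 5 regions. The geometric mean ratio was 12.2-fold higher in failing than in healthy inferior nodes, 9.69-fold higher in superior nodes, 10.6-fold higher in right atria and 12.6-fold higher in left atria. In each of these 4 regions the exact permutation p was 0.0286, the smallest that 4 against 4 libraries allow, and 0.0357 after adjustment. In the left ventricle the ratio was 34.0-fold higher, with an exact permutation p of 0.0667, which is the smallest that 4 against 2 libraries allow and does not reach 0.05. As log2 differences these are 3.61, 3.28, 3.40, 3.65 and 5.09, each larger than the pooled SD of its groups, which ran from 0.235 in the left atrium to 1.19 in the left ventricle.

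The mean summed TPM of the 2 genes was lower in failing hearts, since the loss of Myh6 outweighed the gain of Myh7 in TPM. It averaged 2298 ± 880 in failing against 6336 ± 335 TPM in healthy right atria, 2075 ± 614 against 5915 ± 486 TPM in left atria and 1485 ± 485 against 4061 ± 994 TPM in inferior nodes (SD, n = 4 each). In the superior node the sum was 1634 ± 825 against 2528 ± 948 TPM (SD, n = 4 each), with overlap between the groups. In the ventricle it was 2162 ± 638 TPM (SD, n = 4) against 4216 and 4725 TPM. These TPM were not rescaled between libraries, and in TMM-scaled counts the ventricle groups overlapped. There LV_0507 (log2 CPM of 13.1 for Myh6 and 14.6 for Myh7) had a larger sum than LV_1001 (14.8 and 11.3). As a share of all estimated counts, the 2 genes took 3.05 ± 0.143% in healthy and 1.30 ± 0.447% in failing right atria (SD, n = 4 each). No test was made of the sum.

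The regions were then compared within a state, in 5 pairs that share atrial libraries and are not independent. By mean TPM in healthy hearts, Myh6 ran from the right atrium (6307) through the left atrium (5872), the left ventricle (4146) and the inferior node (4028) to the superior node (2509). Of the neighbours in this order, only the left atrium and the left ventricle had ranges that did not overlap. Healthy Myh7 ran from the left ventricle (324) through the left atrium (43.0), the inferior node (33.1) and the right atrium (29.3) to the superior node (18.7), and only the ventricle stood clear of its neighbour. In failing hearts the ventricle was again the highest for Myh7, clear of its neighbour. It was the lowest for Myh6, where its range overlapped that of the inferior node. These TPM were not rescaled between libraries, and in TMM-scaled counts the place of the ventricle for Myh6 changed. Healthy ventricles then had the highest mean log2 CPM (14.96, against 14.78 in right and 14.70 in left atria). Their range overlapped that of the left atrium. Among failing hearts the inferior node was then the lowest (mean log2 CPM of 12.38, against 12.46 in the ventricle).

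The ventricle differed from the left atrium in Myh7 in both states. Healthy Myh7 was 3.69 higher in the ventricle on the log2 scale (SE 0.11, edgeR adjusted p = 2.5e-09), where 43.5% of genes passed. Failing Myh7 was 4.08 higher (SE 0.42, edgeR adjusted p = 0.0013), where 10.8% of genes passed. Myh6 did not pass in either state, at 0.27 (SE 0.13, edgeR adjusted p = 0.123) in healthy and -0.46 (SE 0.59, adjusted p = 0.661) in failing hearts. The direction of the healthy Myh6 difference depended on the scaling, since limma on unscaled log2(TPM + 1) gave -0.50 (adjusted p = 0.0012), where the median gene tested differed by -0.54 before and by -0.03 after TMM scaling. The same limma test gave failing Myh6 as -1.75 (adjusted p = 0.0357), where the median gene differed by -0.81 before scaling.

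The node parts and the right atrium differed in Myh6 in healthy hearts. Myh6 was lower than in the right atrium by a log2 difference of -0.96 in the superior node (SE 0.24, edgeR adjusted p = 0.0187, 23.2% of genes called) and of -0.63 in the inferior node (SE 0.15, edgeR adjusted p = 0.0179, 17.6% of genes called). Myh7 did not pass, at -0.24 (SE 0.27) in the superior and 0.18 (SE 0.18) in the inferior node. Without the healthy right atrium library RA_1002 the Myh6 differences were -0.92 and -0.60 with edgeR adjusted p of 0.0568 and 0.0516, and without the inferior node library SB_1001 the latter was -0.57 (edgeR adjusted p = 0.0552). In 1 fit of all 38 libraries neither was called, at -1.0 and -0.67.

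In failing hearts the unpaired edgeR fits called neither node part against the right atrium for either gene, although these libraries met the pairing rule described below. Myh6 differed by -0.58 (SE 0.39) in the superior node, where 8.28% of genes passed, and by -0.97 (SE 0.42, edgeR adjusted p = 0.139) in the inferior node, where 19% passed. The inferior node value became a call with the code as a replicate block, at -1.05 (edgeR adjusted p = 0.0345), with DESeq2 at -0.97 (adjusted p = 0.0461), and without iSAN0409 at -1.39 (edgeR adjusted p = 0.0262). Failing Myh7 differed by 0.06 (SE 0.44) and 0.12 (SE 0.44), and its direction turned with single libraries.

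No difference between the node parts passed for either gene. Inferior minus superior was 0.32 (SE 0.26) for Myh6 and 0.42 (SE 0.24) for Myh7 in healthy hearts. In failing hearts the differences were -0.39 (SE 0.45) and 0.06 (SE 0.51). That failing fit was unpaired, although these libraries met the pairing rule described below. With the code as a replicate block, failing Myh6 differed by -0.42 (SE 0.16, edgeR adjusted p = 0.223). Failing Myh7 then differed by 0.058 (SE 0.092, edgeR adjusted p = 0.771). Few genes passed at all between the node parts, 0.00698% in healthy and 0% in failing hearts, where edgeR called 0 of 14368 genes with 1130 at an unadjusted p under 0.05 and DESeq2 called 41. Between the atria, left minus right in healthy hearts was -0.07 (SE 0.09) for Myh6, which did not pass, and 0.58 for Myh7 (SE 0.18, edgeR adjusted p = 0.0927), where 9.14% of genes were called. That fit was unpaired, although the healthy atrial libraries met the pairing rule described below. Myh7 passed with the code as a replicate block, at 0.61 (edgeR adjusted p = 0.0054), with DESeq2 at 0.58 (adjusted p = 0.0029), and without RA_1001 at 0.72 (edgeR adjusted p = 0.0312) or RA_1002 at 0.43 (edgeR adjusted p = 0.0193). In failing hearts left minus right was -0.20 (SE 0.33) for Myh6 and 0.71 (SE 0.33) for Myh7, and neither passed, as for all but 0.311% of genes.

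For the log2 ratio of Myh7 to Myh6, no difference between regions had an adjusted exact permutation p under 0.05. The ventricle had a ratio 10.8-fold that of the left atrium in healthy hearts (exact permutation p = 0.0667, the smallest possible with 2 libraries) and 29.1-fold in failing hearts (exact permutation p = 0.0286, the smallest possible, 0.143 after adjustment). Within the same code, the inferior node had a higher ratio than the right atrium in 4 of 4 healthy and 4 of 4 failing codes, and so had the superior node. The mean paired log2 differences were 0.87 and 1.08 for the inferior and 0.73 and 0.60 for the superior node, with an exact paired sign-flip p of 0.125 for each, the smallest that 4 pairs allow. The left atrium was also above the right, in 4 of 4 healthy codes (mean 0.69, exact paired p = 0.125) and in 3 of 4 failing codes (mean 0.93, exact paired p = 0.25). The inferior node was above the superior node in 3 of 4 healthy codes (mean 0.14, exact paired p = 0.375) and in 4 of 4 failing codes (mean 0.47, exact paired p = 0.125).

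Whether the health effect differed between regions was tested as an interaction, a difference of 2 fold changes. The fits were unpaired unless stated, although some of these pairs of regions met the pairing rule described below. The largest such difference for Myh6 was between the node parts, where the fall was 0.73 larger in the inferior than in the superior node on the log2 scale (interaction -0.73, SE 0.55, edgeR adjusted p = 0.960). Ventricle against left atrium followed closely at -0.69 (SE 0.76, edgeR adjusted p = 0.938). This order depended on the setting. With the code as a replicate block, the node parts gave -0.79 (SE 0.24, edgeR adjusted p = 0.265). Ventricle against left atrium gave -0.85 in such a fit (SE 1.04, edgeR adjusted p = 0.988). With the Myh6 transcript described below left out, the unpaired values were -0.73 for the node parts and -1.12 for ventricle against left atrium. For Myh7 the largest was 0.44 (SE 0.45, edgeR adjusted p = 0.931), more in the ventricle than in the left atrium. With the replicate block the largest for Myh7 was -0.45, between the node parts (SE 0.18, edgeR adjusted p = 0.386). None of the 5 pairs of regions gave a call for either gene. Few genes were called in these tests, 0% for inferior against superior node (598 of 14918 at an unadjusted p under 0.05, 0 by DESeq2), 0% for superior node against right atrium (1666 of 14761, and 135 by DESeq2), 0.0203% for inferior node against right atrium, 0.171% for left against right atrium and 0.114% for ventricle against left atrium. For the ratio, the health effect was 1.44 larger in the ventricle than in the left atrium on the log2 scale (exact permutation p = 0.583, 0.891 after adjustment). That test reassigns regions within each state, so the difference between the regions widens the values it is set against.

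The libraries of 1 code tended to hold the same place in every region. In failing hearts code-0508 had the highest Myh7 share of the 4 codes in 5 of 5 regions (4 of 5 if the transcript described below is left out of Myh6), and code-0506 had the lowest in 4 of 5, the exception being the left atrium. The spread between codes was wide in the right atrium, with log2 ratios from -5.62 in RA_0506 to -2.85 in RA_0508, and in the superior node, from -5.0 in sSAN0506 to -2.23 in sSAN0508. It was narrow in the left atrium, from -3.71 in LA_0409 to -3.27 in LA_0508. By TPM, Myh6 was lowest in code-0508 in 4 of 5 regions and highest in code-0409 in 4 of 5. Both counts depended on the ventricle. With the transcript described below left out, LV_0507 was the lowest there (63.0 TPM, against 194 TPM in LV_0508). In TMM-scaled counts LV_0506 had more Myh6 than LV_0409 (log2 CPM of 13.4 and 13.1). In healthy hearts code-1002 had the lowest Myh7 share and the highest Myh6 level in 5 of 5 regions, the ventricle having 2 codes only.

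**Figure D4:**
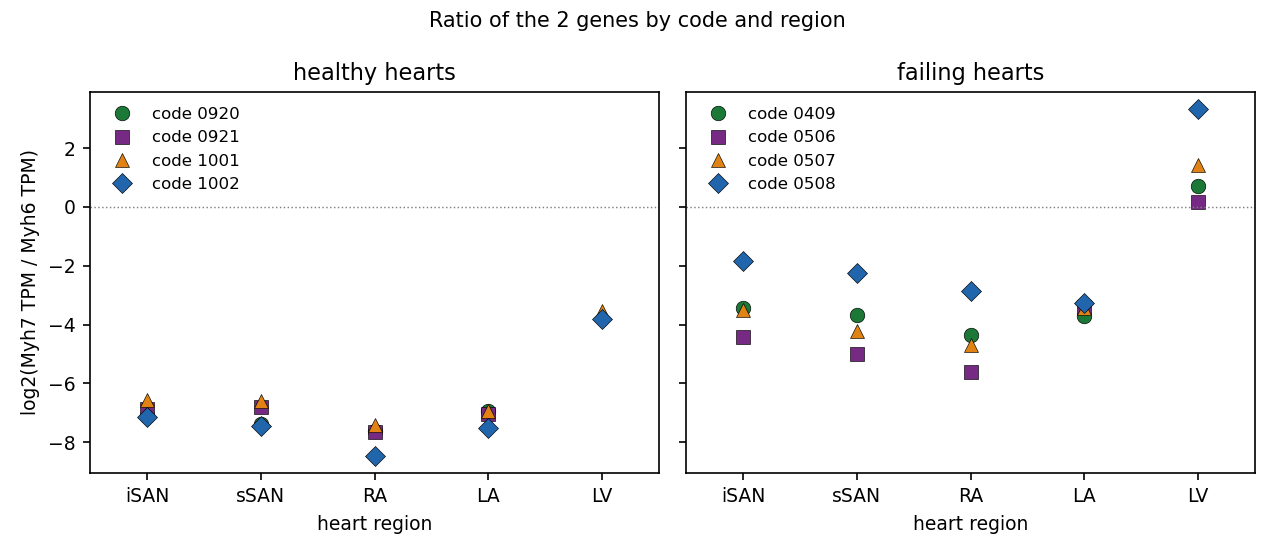
Log2 ratio of Myh7 to Myh6 TPM for every library by region, in healthy (left) and failing (right) hearts, with a symbol and colour for each code and a dotted line at equal levels. In failing hearts code-0508 (blue diamonds) is the highest in each region, and the failing left ventricles, from 0.18 to 3.32, are the only libraries above the line.

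The 4 failing ventricles had the widest spread of the 10 groups in Myh6 (SD 65.7% of the mean) and in the log2 ratio (SD 1.37). Their Myh6 level spanned 1157 TPM in LV_0409 to 194 TPM in LV_0508, and the ratio spanned a log2 value of 0.18 in LV_0506 to 3.32 in LV_0508. Myh7 spanned less, from 1007 to 1939 TPM, and ranked between the 40th and 56th most abundant gene of its library, against 217 and 239 in the healthy ventricles. Without LV_0507 and LV_0508 together, a choice made after their values were seen, Myh7 was 2.40 higher (SE 0.26, edgeR adjusted p = 0.0352) and Myh6 differed by -1.74 (SE 0.28, edgeR adjusted p = 0.0822), with 36 of 13325 genes called.

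Transcript levels set 1 of these libraries apart. Myh7 is a single transcript in the deposited transcript table, ENSRNOT00000024186.4, and Myh6 is the sum of 3, matched by their values, since the files do not pair transcripts with genes. In 37 of 38 libraries nearly all of Myh6 lay on ENSRNOT00000023302.3, and ENSRNOT00000099412.1 had at most 1.13 TPM. In the failing ventricle LV_0507, ENSRNOT00000099412.1 had 359 TPM, 85.1% of the Myh6 level of that library, and ENSRNOT00000023302.3 had 60.8 TPM. Leaving that transcript out, Myh6 was 63.0 TPM and the Myh7 share 94.8% in this library, above the 90.9% of LV_0508. The log2 difference of ventricular Myh6 was then -2.56 (SE 0.93, edgeR adjusted p = 0.424), and the log2 difference of the ratio 5.77 in place of 5.09.

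**Figure D5:**
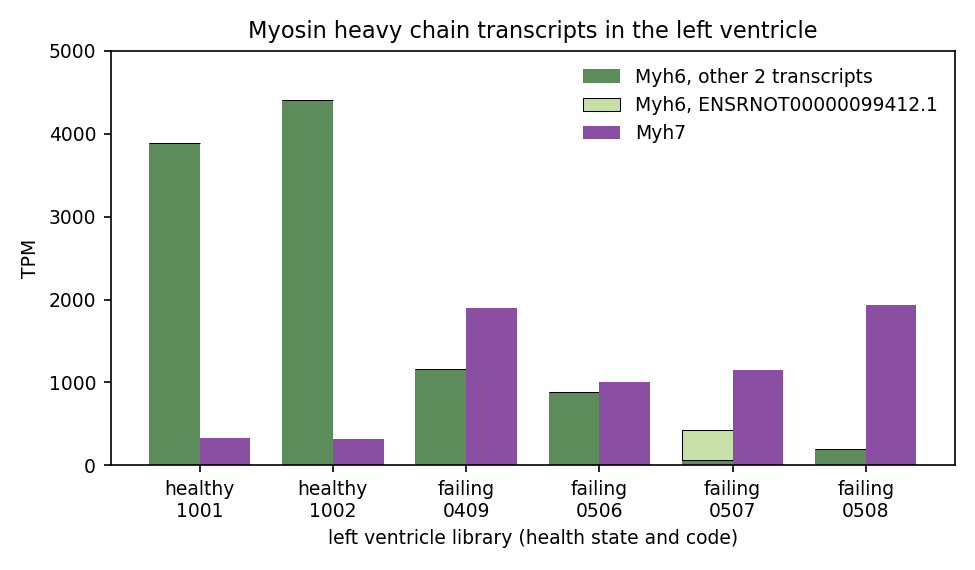
Levels in TPM of Myh6 (green, with the transcript ENSRNOT00000099412.1 in light green on top) and Myh7 (purple) in the 6 left ventricle libraries. Myh7 exceeded Myh6 in the 4 failing libraries, and the light green part is visible in the failing library LV_0507 only, with 359 TPM.

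Pearson's r between the log2 CPM (TMM-scaled counts) of Myh6 and of Myh7 was -0.42 over all 38 libraries, 0.52 over the 18 healthy and -0.16 over the 20 failing ones. Without the ventricle it was -0.57 over 32 libraries, 0.53 over 16 healthy and 0.11 over 16 failing ones, so that the sign in failing hearts rests on the 4 ventricles. These points share regions and codes, and r is given as a description. The genes whose levels went most like those of Myh6, over 38 libraries and among 12086 genes compared, were ENSRNOG00000002827 and ENSRNOG00000033119, both with r = 0.90. ENSRNOG00000002827 differed between failing and healthy hearts by -1.84, -1.27, -1.82 and -2.16 on the log2 scale in the inferior node, the superior node, the right and the left atrium, each called by edgeR, and by -1.56 in the ventricle, which was not called. In the same order ENSRNOG00000033119 differed by -0.74, -0.38, -0.70, -0.84 and -0.37, and was called in the inferior node and both atria. Most like Myh7 were ENSRNOG00000001245 and ENSRNOG00000018836, both with r = 0.94. Between failing and healthy hearts ENSRNOG00000001245 differed by 0.0076, 0.65, 0.40, 0.60 and 1.02 in the same order of regions with the ventricle last, and ENSRNOG00000018836 by 0.26, 0.42, 0.34, 0.32 and 0.75. Among these regions edgeR called both genes in the 2 atria only. These genes were picked by likeness over failing and healthy libraries together, which favours a health difference like that of the member. Their calls are therefore a description and no separate result. Of all genes tested edgeR called 38.5, 13.5, 47.5, 48.2 and 0% in the same order of regions. The reference table gave no symbol for these 4 IDs.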

How the data were processed

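The submitters' processing notes name Trimmomatic 0.39 and kallisto 0.48.0. Genome build, annotation and the way transcripts were summed per gene were not given in the sources used here. Deposited by the authors were estimated counts for 24057 genes, which are not whole numbers and were already scaled for transcript length, and TPM values per gene and per transcript (46854 transcripts). Levels, shares and ratios were computed here from the deposited TPM, with 4 libraries per group (2 for the healthy ventricle).

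Estimated counts were rounded, filtered with filterByExpr (count minimum 10, total minimum 15), scaled with TMM and tested in R 4.3.3 with edgeR 4.0.16 (quasi-likelihood, robust), fitted on the libraries of each comparison, with Benjamini-Hochberg adjustment over all genes and a threshold of 0.05. Standard errors come from the test statistic. TMM scaling moved the median gene by over 0.1 on the log2 scale in 9 of 15 comparisons, from -0.23 to 0.74. Log2 ratios were compared with exact two-sided permutation tests. Alternatives were DESeq2 1.42.0, edgeR with RLE scaling, no filter, limma 3.58.1 on log2(TPM + 1), log2(TPM + 0.1) or TMM-scaled TPM, scaling without the 10 most abundant genes, a replicate block for the code, 1 fit of all 38 libraries, and leaving out single libraries in turn. Further alternatives, Myh6 without 1 transcript and the ventricle without 2 libraries, were chosen after seeing the data. The steps were tested on simulated counts.

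By the rule that same-coded libraries deviate together (correlation across genes over 0.1 in every pair), the codes paired the libraries of both node parts with the right atrium in both states, of the atria in healthy hearts and of the node parts in failing hearts. The pairing comes from the codes in the titles and the data. The genes named were the 2 members and, for each, the 2 genes with the highest correlation over all libraries, among genes with a mean log2 CPM of at least 1 (prior count 2). Lists of other sarcomere genes, regulators and cell type markers were chosen by symbol and not applied, because the table of assembly GRCr8 used here matched 0 of the IDs. Members and lists were chosen with earlier results of these data known. No 2 libraries held identical values.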

Additional observations from a re-analysis of the deposited data

Results flagged for a closer look

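Among the 9 groups of 4 libraries, 5 values per library (the levels of both genes, their sum, the Myh7 share and the log2 ratio) were searched for a library far from the other 3, by Dixon's test. Chance marks about 1 in 20 of such groups, and 45 were searched. The summed level of Myh6 and Myh7 in the failing left atrium library LA_0507 was 1162 TPM, against 2310, 2334 and 2493 TPM in the other 3, while its Myh7 share of 8.52% lay among theirs. With each library left out in turn, both left atrial calls held, with Myh6 from -1.58 to -1.21 and Myh7 from 2.08 to 2.42 on the log2 scale. In the failing ventricle library LV_0507 the transcript ENSRNOT00000099412.1 made up 85.1% of Myh6, against at most 1.02e-10% in the other 3. This transcript was looked at after its values were seen, so no chance rate applies to it.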

How the results depend on the processing

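Of 488 values under other settings 455 kept their direction and call (counts of genes within 1.5 times), and of 620 with a library left out 575 were kept. Whenever libraries were left out, a ratio counted as kept if it moved by less than its pooled SD without turning. Its call was not checked. Ratios of estimated counts are among the settings and could not differ from those of TPM, since the counts were already scaled for transcript length. Leaving 1 transcript out of Myh6 could change little in comparisons without LV_0507. DESeq2 added calls for Myh6 in the superior node (-0.89), Myh7 in the ventricle (2.64) and between healthy atria (0.58), Myh6 between healthy ventricle and left atrium (0.28) and between failing inferior node and right atrium (-0.97). The fit of 38 libraries added ventricular Myh6 (-2.11) and Myh7 (2.65) and lost healthy Myh6 of the superior (-1.0) and inferior node (-0.67) against the right atrium. Unscaled limma reversed healthy Myh6 of ventricle against left atrium (-0.50 with either pseudocount), called it in failing hearts with pseudocount 1 (-1.75, adjusted p = 0.0357) and not with 0.1 (-1.76, adjusted p = 0.0507), and turned the inferior node against right atrium interactions of Myh6 (0.0050 and 0.0048 with pseudocounts 1 and 0.1) and Myh7 (0.22 and 0.21), the latter also on TMM-scaled TPM (0.054). As a percentage, the ratio interaction of superior node against right atrium turned to 2.30 points. Without the ventricles LV_0507 and LV_0508, Myh7 (2.40) was called. Where no value above bears on it, the cause was not tested.

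The paired fits, with the code as a replicate block, added healthy Myh7 of left against right atrium (0.61) and failing Myh6 of inferior node against right atrium (-1.05), and turned failing Myh7 of superior node against right atrium (-0.032). They changed no other call of either gene. No paired analysis was possible for failing against healthy hearts because the states share 0 codes.

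Genes called moved in the inferior node to 2883 and 2930 (limma, pseudocounts 1 and 0.1) from 5533, in the superior node to 3293 (DESeq2), 1180, 1186 and 1258 (limma, with TMM-scaled TPM last) from 1934, and in the ventricle to 356 (DESeq2), 6, 1 and 1 (limma) and 3009 (38 libraries) from 0. With a library left out, the superior node gave 368 to 1987 genes (368 without ST_0920) and the ventricle 0 to 12 (12 without LV_0507).

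With a library left out, superior node Myh7 ran from 2.14 to 2.74, and healthy Myh6 against the right atrium from -1.07 to -0.81 in the superior and from -0.73 to -0.53 in the inferior node. Healthy Myh7 of left against right atrium ran from 0.43 to 0.72, and failing Myh6 of inferior node against right atrium from -1.39 to -0.74. Differences near 0 changed sign, failing Myh7 of inferior against superior node (-0.24 to 0.36), superior node against right atrium (-0.24 to 0.35) and inferior node against right atrium (-0.19 to 0.40), and the unpaired failing ratio of the node parts (-0.0093 to 0.99), which was higher in the inferior node in 4 of 4 code pairs. So did interactions of inferior node against right atrium for Myh7 (-0.34 to 0.20), of left against right atrium for Myh6 (-0.34 to 0.063) and Myh7 (-0.072 to 0.41), and of the ratio for the node parts (-0.15 to 0.85), superior node (-0.64 to 0.38) and inferior node (-0.28 to 0.72) against right atrium and the atria (-0.17 to 0.75). Counting error was at most 2.57% of a Myh7 value.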
